A study of Mus musculus with 10 samples.

Results

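Adipogenic transcription factors, the DNA-binding proteins and cofactors that turn progenitor cells into adipocytes and keep adipocytes differentiated, were examined in BAT lacking adipocyte STAT5. The set was chosen by gene symbol and holds Pparg, Cebpa, Cebpb, Cebpd, Rxra, Klf15, Ebf1, Ebf2, Zfp423 and Tle3. All 10 were among the 13568 genes that passed the filter on low counts, out of 24454 genes listed. The filter used the sum over all libraries of both genotypes.

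The tissue came from 5 control and 5 Stat5Adipoq mice, with 1 RNA-Seq library per mouse. Both genotypes are labelled basal in the sample titles. All mice were 2-month-old males on a C57BL/6N background with free access to food. Stat5Adipoq mice carried floxed Stat5a and Stat5b alleles and the Adipoq-Cre transgene, which directs deletion to adipocytes and not to the other cells of the tissue. Per the methods, controls were Cre-negative littermates with floxed Stat5. They appear as wild type in the labels. Libraries held between 8488129 and 19514904 counts on genes. Bulk tissue was sequenced, so fewer cells of a type and less RNA per cell cannot be told apart.

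PPARγ is the nuclear receptor at the centre of adipocyte differentiation and binds DNA as a dimer with RXRα. C/EBPβ and C/EBPδ act early in differentiation and precede Pparg and Cebpa, whose products then maintain each other's expression and switch on genes of lipid storage. KLF15, the early B cell factors EBF1 and EBF2, the zinc finger protein ZFP423 and the cofactor TLE3 act around this core, with EBF2 linked to the brown and TLE3 to the white fat programme. STAT5 has itself been placed upstream of this network during adipogenesis.

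Binding motifs of STAT5, C/EBP, EBF and PPAR with RXR were searched on both strands in RefSeq windows of the GRCm38.p6 build that run from 250 bases before to 50 bases after annotated starts. Windows were given for 8 of the 10 genes, 13 windows in all. The STAT5 motif TTCNNNGAA was in 0 of the 13, against 8.30% of 32851 windows of all genes, which says only that these letters are not in these windows. The C/EBP core TTGCNNAA was in 2 windows, one of Pparg and one of Zfp423, against 10.8% of all windows. The EBF core CCCNNGGG was in 2 windows, one of Cebpb and one of Zfp423, against 13.7% of all windows. The element bound by PPAR and RXR dimers, AGGTCA repeated after 1 free base, was in 0 of the 13 and in 0.0396% of all windows. The windows of Pparg and Zfp423 with the C/EBP core are shown because they join members of the set by sequence. Each is printed along the strand of its gene with the core or its reverse complement in capitals, and a match is a description of the letters only.
Pparg, the most downstream of 3 starts, chr6:115421816-115422115, plus strand: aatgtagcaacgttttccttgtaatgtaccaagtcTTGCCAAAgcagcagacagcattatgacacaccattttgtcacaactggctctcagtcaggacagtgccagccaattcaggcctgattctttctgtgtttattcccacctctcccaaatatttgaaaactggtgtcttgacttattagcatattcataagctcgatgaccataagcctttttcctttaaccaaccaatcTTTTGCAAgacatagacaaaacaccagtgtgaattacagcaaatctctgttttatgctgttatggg
Zfp423, chr8:87959546-87959845, minus strand: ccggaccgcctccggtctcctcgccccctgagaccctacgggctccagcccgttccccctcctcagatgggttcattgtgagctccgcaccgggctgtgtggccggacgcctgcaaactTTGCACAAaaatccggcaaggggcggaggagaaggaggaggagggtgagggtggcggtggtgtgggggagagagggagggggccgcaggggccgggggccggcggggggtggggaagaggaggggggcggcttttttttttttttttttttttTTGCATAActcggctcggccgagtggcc
The matches began 215 and 16 bases before the Pparg start. In Zfp423 one match began 131 bases before the start and the other lay after it. Counts were given per gene, so the starts of Pparg, which give rise to its isoforms, cannot be told apart in these data.

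Levels of different genes were compared as CPM per kilobase of merged exons, and all values of this paragraph are levels on that scale. Cebpa was the most abundant of the 10 factors, at 252 ± 41.2 for control and 244 ± 14.5 for Stat5Adipoq BAT (SD, n = 5 each), above 98.8% of tested genes. Pparg followed at 105 ± 9.91 and 119 ± 7.96 (SD, n = 5 each). It lay below Cebpa in all 10 libraries and above Cebpb in 9 of them. Cebpb was at 78.5 ± 22.4 for control and 69.1 ± 15.99 for Stat5Adipoq BAT (SD, n = 5 each). Rxra, Klf15, Ebf2 and Ebf1 formed a middle range, with control means of 23.1, 19.98, 14.96 and 13.4. The order among these 4 genes was not fixed, since Rxra was above Klf15 in 9 libraries, Klf15 above Ebf2 in 7 and Ebf2 above Ebf1 in 8. Tle3 and Zfp423 were lower, with control means of 5.64 and 4.18, and Tle3 was above Zfp423 in 9 libraries. Cebpd was the lowest in every library, at 0.512 to 1.58, and 22.5% of tested genes lay below it. Its annotated exon length was 3746 bases in GENCODE and 2260 bases in RefSeq, and over the shorter length its mean level of 1.56 was still the lowest of the set.

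**Figure D1:**
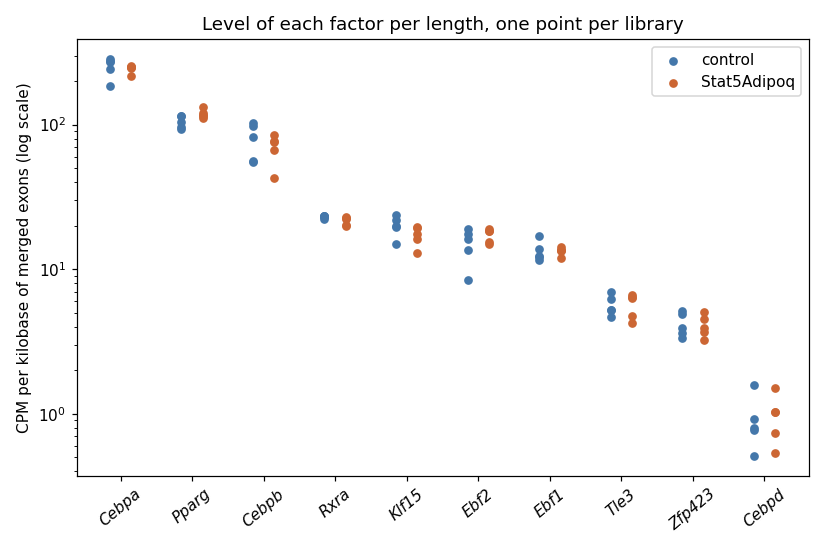
Level of each factor in CPM per kilobase of merged exons on a log axis, with 1 point per library, control in blue and Stat5Adipoq in orange. Cebpa lay highest in all 10 libraries and Cebpd lowest, and the genotypes overlapped at each gene.

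Expression of the factors was then compared between the genotypes. None of the 10 was called at an adjusted p-value of 0.05 by edgeR's quasi-likelihood test, whereas 2.71% of all tested genes were called. DESeq2 also called 0 of the 10, against 4.86% of all tested genes, and limma-voom called 0. At an unadjusted p-value below 0.05 the count was 1 of 10 with edgeR, against 15.2% of all tested genes. The libraries of the genotypes overlapped for each factor, while 4.39% of tested genes showed no overlap. Fold changes on the log2 scale ran from -0.22 for Klf15 to 0.20 for Ebf2, with 4 above and 6 below 0. Their median was -0.02, beside -0.0028 over all tested genes, and the median of their size without regard to sign was 0.07, beside 0.11 over all tested genes and 0.09 over the genes with at least 50 counts on average. The 95% confidence limits of all 10 lay between -1 and 1, as did those of 86.1% of tested genes, and for 6 of the 10 factors they lay between -0.5 and 0.5. By comparison Stat5a fell to 0.162 and Stat5b to 0.260 of the control level (edgeR, adjusted p = 2.0e-07 and 3.9e-09), and their Stat5Adipoq libraries lay below all controls.

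**Figure D2:**
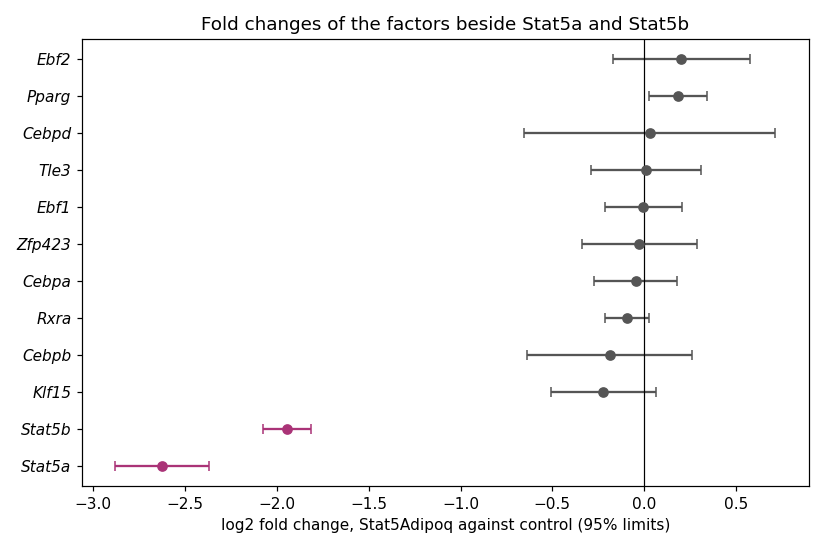
Log2 fold change of Stat5Adipoq against control with 95% confidence limits from edgeR, for the 10 factors in grey and for Stat5a and Stat5b, the deleted genes, in purple. The limits of all factors lay between -1 and 1, and those of Pparg, at 0.03 and 0.34, were the only ones of the 10 that did not include 0.

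Pparg (chromosome 6, 115360879 to 115490404 in GRCm38, as for the positions that follow) encodes the receptor on which fat cell differentiation depends. In control replicates 1 to 5 it was at 276, 339, 309, 338 and 285 CPM, and in Stat5Adipoq replicates 1 to 5 at 344, 357, 328, 340 and 390 CPM. Of the Stat5Adipoq libraries 4 lay above all controls and replicate 3 lay within their range. Means were 309 ± 29.3 CPM for control and 352 ± 23.5 CPM for Stat5Adipoq BAT (SD, n = 5 each), a 1.14-fold difference with 95% limits of 1.02 and 1.27. It did not pass adjustment over all genes (log2 fold change 0.19, standard error 0.07, adjusted p = 0.24 by edgeR). An exact permutation test on log2 CPM, two-sided, gave p = 0.040, or 0.33 when adjusted over all tested genes. The smallest p that 5 against 5 libraries allow is 0.0079. The log2 fold change stayed between 0.14 and 0.22 over 19 alternatives and was called in none of them. The genes whose variation around the genotype means was most like that of Pparg were Trim47, Ndrg1 and Rhoj, each with Pearson's r of 0.84 over 10 libraries. These are the highest of 10151 genes with at least 50 counts on average, so no p-value is given for them.

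Rxra (chromosome 2, 27676445 to 27763319), which encodes the dimer partner of PPARγ, varied least among controls. Control replicates 1 to 5 had 127, 128, 128, 126 and 122 CPM, and Stat5Adipoq replicates 1 to 5 had 124, 108, 111, 122 and 126 CPM. Replicates 2, 3 and 4 of Stat5Adipoq lay below all controls, the other two within the control range. The coefficient of variation was 1.88% in control and 6.87% in Stat5Adipoq BAT, beside medians of 10.2% and 8.91% over 10152 genes with at least 50 counts on average. The fold change was 0.936 with limits of 0.861 and 1.02 (adjusted p = 0.46 by edgeR). For Rxra the exact permutation test gave p = 0.048, which became 0.36 over all tested genes. As for Pparg, this adjusted value could not have passed the threshold.

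Cebpa (chromosome 7, 35119293 to 35121928) maintains the differentiated adipocyte together with Pparg. It was at 729, 753, 486, 638 and 716 CPM in control replicates 1 to 5 and at 658, 664, 667, 576 and 654 CPM in Stat5Adipoq replicates 1 to 5. The Stat5Adipoq values all lay inside the control range, whose lowest value was that of control replicate 3. Its log2 fold change was -0.05, with 95% limits of -0.27 and 0.18 (adjusted p = 0.90 by edgeR), and it was -0.14 without control replicate 3.

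Cebpb (chromosome 2, 167688915 to 167690432) and Cebpd (chromosome 16, 15887286 to 15889545), the early factors, varied most from mouse to mouse. Cebpb was at 146, 123, 84.4, 155 and 82.5 CPM in control and at 64.4, 115, 127, 114 and 99.9 CPM in Stat5Adipoq replicates 1 to 5. The genotypes overlapped widely, with the lowest value in Stat5Adipoq replicate 1 and the highest in control replicate 4. The log2 fold change of -0.19 had limits of -0.64 and 0.26 (adjusted p = 0.74 by edgeR), which on the linear scale run from 0.644 to 1.20 times control. Of its exon bases 20.7% are also covered by exons of Tmem189, which lies on the other strand, and the use of strand in counting is not given in the sources used here. Cebpd was scarce, with 21 to 117 counts per library. It was at 3.45, 2.995, 2.89, 5.91 and 1.92 CPM in control and at 2.01, 3.85, 2.77, 5.62 and 3.83 CPM in Stat5Adipoq replicates 1 to 5. Its values overlapped between the genotypes, and its coefficient of variation was 43.6% in control and 37.6% in Stat5Adipoq BAT. The limits of its log2 fold change, -0.65 and 0.72, were the widest of the set and run from 0.636 to 1.64 times control on the linear scale (adjusted p = 0.98 by edgeR). Spidr, on the other strand, shares 15% of the exon bases of Cebpd.

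Klf15 (chromosome 6, 90461043 to 90491803) encodes a Krüppel-like factor that is induced by glucocorticoids and acts on amino acid and lipid metabolism. Control replicates 1 to 5 had 61.1, 54.6, 66.4, 55.2 and 41.6 CPM, and Stat5Adipoq replicates 1 to 5 had 53.8, 45.4, 35.9, 48.8 and 54.6 CPM. Stat5Adipoq replicate 3 was the lowest and control replicate 3 the highest library. Klf15 had the lowest fold change of the 10 factors, 0.857 with limits of 0.703 and 1.05, and did not pass the threshold (adjusted p = 0.47 by edgeR, exact permutation p = 0.19).

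Ebf1 (chromosome 11, 44618100 to 45008096) and Ebf2 (chromosome 14, 67233292 to 67430952) encode early B cell factors, which in fat bind close to PPARγ, and EBF2 marks brown fat progenitors. Ebf1 was at 113, 119, 134, 165 and 121 CPM in control and at 132, 130, 132, 140 and 117 CPM in Stat5Adipoq replicates 1 to 5. Its means were nearly equal, 130 ± 20.8 CPM for control and 130 ± 8.16 CPM for Stat5Adipoq BAT (SD, n = 5 each). The log2 fold change of -0.0041 had limits of -0.21 and 0.20 (adjusted p = 0.99 by edgeR). Markers of B cells, which also express Ebf1, summed to 3.25 to 5.45 CPM in control and 4.68 to 6.20 CPM in Stat5Adipoq libraries over 9 markers, with none at 0 in all libraries, and 0 of the 5 tested were called. Ebf2 was at 112, 132, 58.7, 94.7 and 121 CPM in control and at 131, 128, 126, 107 and 104 CPM in Stat5Adipoq replicates 1 to 5. Control replicate 3 was the lowest library, and the Stat5Adipoq values lay inside the control range. The log2 fold change of Ebf2 was 0.20 with limits of -0.17 and 0.58 (adjusted p = 0.65 by edgeR) and 0.06 without control replicate 3. It was -0.02 with 1 surrogate variable. Exons of Gm10860, on the other strand, share 6.12% of the exon bases of Ebf2.

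Control replicate 3, in which Cebpa and Ebf2 were lowest, also had the highest sums of muscle and liver markers. The 9 skeletal muscle markers, all tested, summed to 3669 CPM there, against 4.60 to 298 CPM in the other controls and 2.24 to 42.4 CPM in Stat5Adipoq libraries. The 8 liver markers, all tested, summed to 99.1 CPM there, against 1.82 to 2.59 CPM in the other controls and 1.32 to 6.80 CPM in Stat5Adipoq libraries. No marker of either list was at 0 in all libraries, and 0 of the 17 were called. At an unadjusted p-value below 0.05 by edgeR were 9 of 9 muscle and 2 of 8 liver markers, all lower in Stat5Adipoq BAT. Of all tested genes 15.2% had such a p-value. The median log2 fold changes were -5.58 for the muscle and -2.95 for the liver markers. Their part in the values of Cebpa and Ebf2 was not tested. Control replicate 4, in which Ebf1, Cebpb and Cebpd were highest, had the highest sum of 9 macrophage markers, 218 CPM against 142 to 183 CPM in the other 9 libraries, and of 6 Schwann cell markers, 523 CPM against 121 to 330 CPM. None of either list was called or at 0 in all libraries, and their part in these values was not tested. At an unadjusted p-value below 0.05 by edgeR were 5 of the 6 Schwann cell markers, all lower, and 0 of the 9 macrophage markers. The median log2 fold change of the Schwann cell markers was -1.29. With control replicate 4 left out, the log2 fold changes were 0.09 for Ebf1, -0.07 for Cebpb and 0.35 for Cebpd, and none was called. Progenitor and fibroblast markers, of which 0 of 14 were called, summed to 1168 to 2189 CPM in control and 1165 to 2133 CPM in Stat5Adipoq libraries. The highest of these sums was also in control replicate 4, with Stat5Adipoq replicate 1 next at 2133 CPM, and their part was not tested.

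Zfp423 (chromosome 8, 87661810 to 87962053, minus strand) encodes a zinc finger protein that marks committed preadipocytes and restrains the thermogenic programme in white fat. It was at 27.3, 28.9, 22.01, 20.3 and 18.7 CPM in control and at 28.6, 20.6, 18.3, 21.9 and 25.4 CPM in Stat5Adipoq replicates 1 to 5. Both genotypes covered almost the same range, and the log2 fold change was -0.03 with limits of -0.34 and 0.29 (adjusted p = 0.97 by edgeR). Tle3 (chromosome 9, 61372326 to 61418497) encodes a cofactor of the Groucho family that cooperates with PPARγ at genes of lipid storage and opposes the brown programme. Values were 60.6, 60.5, 80.6, 72.4 and 54.3 CPM in control and 55.8, 73.2, 49.8, 77.8 and 74.4 CPM in Stat5Adipoq replicates 1 to 5. Its log2 fold change of 0.01 had limits of -0.29 and 0.31 (adjusted p = 0.99 by edgeR).

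**Figure D3:**
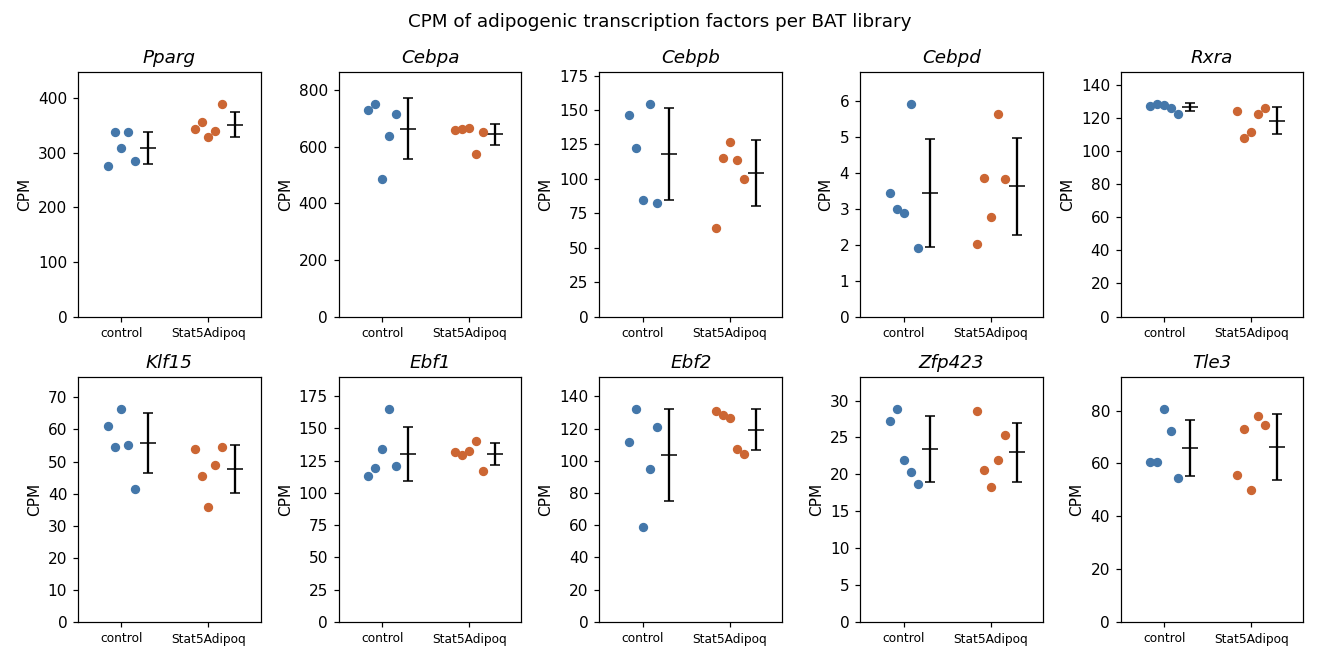
CPM of each factor in the 5 control (blue) and 5 Stat5Adipoq (orange) libraries, with replicates 1 to 5 from left to right within a genotype and the mean ± SD beside them in black, on axes that start at 0. The genotypes overlap in every panel, with 4 of 5 Stat5Adipoq libraries above all controls for Pparg and 3 of 5 below all controls for Rxra.

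The factors were also compared with each other among mice of one genotype. For the 45 pairs of factors, Pearson's r of log2 CPM was taken over 10 libraries after subtraction of the genotype mean, with an exact permutation test within genotypes. No pair passed Benjamini-Hochberg adjustment over the 45 pairs, and 8 had an unadjusted p-value below 0.05. The closest pair was Cebpa and Ebf2, with r = 0.95 (exact permutation p = 0.0056, adjusted p = 0.15) and Spearman's rho = 0.90 (exact permutation p = 0.0071, adjusted p = 0.15). Without control replicate 3 and Stat5Adipoq replicate 4, the libraries farthest from the median of Cebpa, r was 0.83. Tle3 ran opposite to both, with r = -0.66 to Cebpa and -0.70 to Ebf2 (exact permutation p = 0.0085 and 0.010, adjusted p = 0.15 for both), and rho was -0.72 for each (exact permutation p = 0.0093 and 0.014, adjusted p = 0.15 for both). Without the 2 farthest libraries r was -0.41 for Tle3 with Cebpa and -0.75 for Tle3 with Ebf2. Cebpb and Cebpd had r = 0.73 (exact permutation p = 0.024, adjusted p = 0.18) and rho = 0.67 (exact permutation p = 0.042, adjusted p = 0.31), and r was 0.40 without the 2 farthest libraries. Rxra and Klf15 had r = 0.68 (exact permutation p = 0.016, adjusted p = 0.18) and rho = 0.73 (exact permutation p = 0.021, adjusted p = 0.19). Rxra and Zfp423 had r = 0.68 (exact permutation p = 0.025, adjusted p = 0.18) and rho = 0.76 (exact permutation p = 0.012, adjusted p = 0.15). Without Stat5Adipoq replicates 2 and 3, the libraries farthest from the median of Rxra, r was 0.72 with Klf15 and 0.66 with Zfp423. Cebpd with Tle3 and Klf15 with Zfp423 each had r = 0.69 (exact permutation p = 0.045 and 0.042, adjusted p = 0.25 for both), and rho was 0.61 and 0.60 (exact permutation p = 0.087 and 0.097, adjusted p = 0.40 for both). Without the 2 farthest libraries r was 0.67 for Cebpd with Tle3 and 0.30 for Klf15 with Zfp423.

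Relatives of the factors were taken from a list of 27 paralogs, of which 24 were tested and 0 called. Their log2 fold changes had a median of 0.0089 and ran from -0.34 to 0.27, and 2 had an unadjusted p-value below 0.05. Over all tested genes 2.71% were called, and 15.2% had such an unadjusted p-value. Ppara, which encodes the PPAR of fatty acid oxidation, was at 689 ± 106 CPM for control and 830 ± 86.4 CPM for Stat5Adipoq BAT (SD, n = 5 each). Its log2 fold change was 0.27, with limits of 0.04 and 0.50 (adjusted p = 0.24 by edgeR). Aes, a short Groucho family member, had a log2 fold change of -0.02 and Klf9 one of -0.05.

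Regulators that promote adipogenesis, and their coactivators, were not called in 27 of 27 tested genes (median log2 fold change -0.05, 7 above 0). Among them were Srebf1 (log2 fold change -0.23, limits -0.48 and 0.02), Ppargc1b (0.07, limits -0.16 and 0.30) and Nr3c1, the glucocorticoid receptor (-0.03, limits -0.21 and 0.15). Regulators that restrain adipogenesis, and corepressors, were not called in 22 of 22 tested genes (median -0.02). Ctnnb1, which encodes β-catenin, had a log2 fold change of 0.04 (95% limits -0.06 to 0.13), and the corepressor Ncor1 one of -0.10 with limits of -0.23 and 0.03. Irf4 was at 269, 54.4, 30.8, 112 and 67.5 CPM in control and 21.97, 90.4, 27.1, 57.6 and 28.6 CPM in Stat5Adipoq replicates 1 to 5, with overlap between the genotypes (log2 fold change -1.24, limits -2.43 and -0.05, adjusted p = 0.31 by edgeR). Control replicate 1 was the highest, and with this library left out the log2 fold change of Irf4 was -0.56 (adjusted p = 0.64 by edgeR). At an unadjusted p-value below 0.05 by edgeR were 3 of the 27, all lower, and 3 of the 22, with 1 lower and 2 higher. Over all tested genes the share was 15.2%, and 2.71% were called.

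Target genes of the factors were compared next. Among 29 tested genes known as PPARγ targets, 2 fell and 0 rose past the threshold, with a list median of -0.05 and 9 fold changes above 0. Of all tested genes 1.31% were called lower and 1.4% higher. At an unadjusted p-value below 0.05 there were 8 of the 29, all lower, against 15.2% of all tested genes in either direction. Slc27a1, which encodes a fatty acid transporter, was at 363, 325, 365, 322 and 310 CPM in control and at 259, 218, 204, 256 and 241 CPM in Stat5Adipoq replicates 1 to 5. All Stat5Adipoq libraries lay below all controls (log2 fold change -0.52, limits -0.69 and -0.35, adjusted p = 0.0050 by edgeR), and the call stood in 19 of 19 alternatives. Pck1, whose product feeds glycerol synthesis in fat, was at 7243, 5944, 7175, 8206 and 5409 CPM in control and at 4972, 4917, 4351, 5328 and 5126 CPM in Stat5Adipoq replicates 1 to 5. The genotypes did not overlap, and the log2 fold change was -0.46 (adjusted p = 0.037 by edgeR). The call of Pck1 was less firm, as it was lost in 8 of the 10 fits without 1 library and kept without control replicate 2 or control replicate 5, and was also lost with a replicate block and with 1 surrogate variable. Gpd1, a glycerol phosphate dehydrogenase gene, had a log2 fold change of 0.14 (95% limits -0.18 to 0.46).

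Of 13 tested genes known as targets of C/EBP proteins, 2 fell and 0 rose past the threshold. Over all tested genes the shares were 1.31% and 1.4%. The list holds Pparg and Cebpa themselves, and its median was -0.05, with 4 fold changes above 0. At an unadjusted p-value below 0.05 were 3 of the 13, with 2 lower and 1 higher, against 15.2% of all tested genes. Cfd, which encodes adipsin, was at 1733, 1310, 1310, 1425 and 1150 CPM in control and at 749, 485, 602, 429 and 347 CPM in Stat5Adipoq replicates 1 to 5. Every Stat5Adipoq library was below every control (log2 fold change -1.41, standard error 0.18, adjusted p = 0.0021 by edgeR), and Cfd was called in 19 of 19 alternatives. Retn, which encodes the adipokine resistin, was at 104, 77.2, 85.7, 88.6 and 74.5 CPM in control and at 58.7, 19.9, 34.5, 22.6 and 13.0 CPM in Stat5Adipoq replicates 1 to 5. Its genotypes did not overlap either (log2 fold change -1.54, standard error 0.31, adjusted p = 0.023 by edgeR), but the call was lost without control replicate 1 or Stat5Adipoq replicate 2, 3 or 4, and with robust dispersions. Scd1, a fatty acid desaturase gene, had a log2 fold change of 0.29 (95% limits -0.02 to 0.61).

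Genes of amino acid breakdown linked to KLF15 were not called in 5 of 5 tested. At an unadjusted p-value below 0.05 were 3 of the 5, against 15.2% of all tested genes. Aldh4a1 had a log2 fold change of 0.19, Bcat2 of -0.26 and Gpt of -0.30, with adjusted p-values of 0.26, 0.28 and 0.19 by edgeR.

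Genes of brown adipocyte identity, a programme that EBF2 and PPARγ act on, had a median log2 fold change of 0.24. The range was wide, from -1.065 to 0.44, with 12 of 16 tested genes above 0. Of the 16, 3 rose and 0 fell past the threshold. These were Fbxo31 (66.3 ± 5.58 CPM in control and 87.9 ± 7.40 CPM in Stat5Adipoq BAT, SD, n = 5 each, adjusted p = 0.015 by edgeR), Pank1 (559 ± 67.9 and 740 ± 78.0 CPM, adjusted p = 0.037) and Cox7a1 (388 ± 17.3 and 475 ± 44.3 CPM, adjusted p = 0.040). Their log2 fold changes were 0.41, 0.40 and 0.29. Fbxo31 was called in all 10 fits without 1 library, while Pank1 and Cox7a1 were each lost in 7 of them, namely without control replicate 1, 2, 4 or 5 or Stat5Adipoq replicate 3, 4 or 5. Cox7a1 was also lost with 1 surrogate variable. Fbxo31 and Cox7a1 did not overlap between the genotypes, and Pank1 did. Ucp1 was not called (log2 fold change 0.24, limits -0.25 and 0.72), nor was Prdm16 (0.05, limits -0.31 and 0.40). At an unadjusted p-value below 0.05 there were 6 of the 16, with 5 higher and 1 lower. Of all tested genes 1.4% were called higher and 1.31% lower, and 15.2% had an unadjusted p-value below 0.05.

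**Figure D4:**
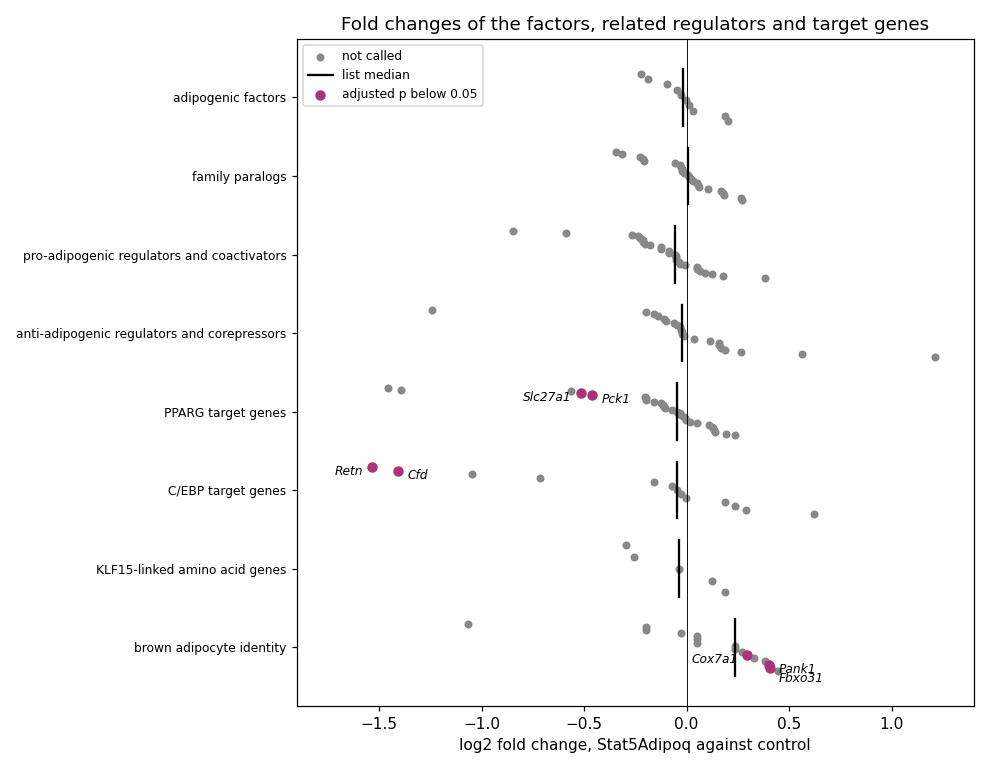
Log2 fold change of Stat5Adipoq against control for the 10 factors and for the lists of related regulators and target genes, with 1 point per tested gene, purple where the adjusted p-value was below 0.05 and a black line at the list median. No gene of the 4 upper lists was called, while Slc27a1, Pck1, Cfd and Retn were lower and Fbxo31, Pank1 and Cox7a1 higher.

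**Figure D5:**
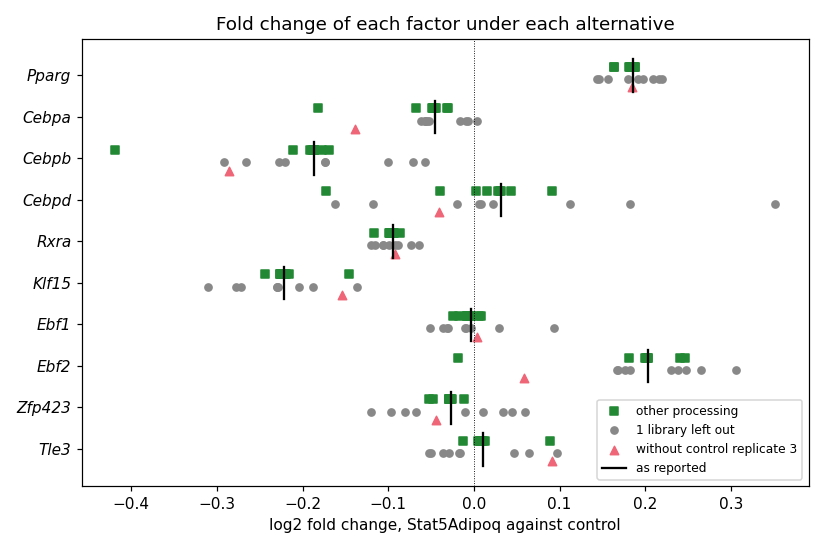
Log2 fold change of each factor under the 19 alternatives, with squares for other processing, grey circles for fits without 1 library, triangles for the fit without control replicate 3 and a black line for the reported value. Pparg stayed between 0.14 and 0.22 and Rxra between -0.12 and -0.06, while Cebpd ran from -0.17 to 0.35.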

How the data were processed

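RNA-Seq counts of BAT from 5 control and 5 Stat5Adipoq mice were used, grouped by sample title. The authors aligned single-end reads of 50 bases to GRCm38 with STAR 2.5.0b and counted them per gene with featureCounts 1.5.0-p1. The deposited counts per gene are not normalized. The authors' tables of fold changes and p-values from DESeq2 1.16.1 were used only to pair gene symbols with Entrez identifiers.

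The factors and all lists were chosen with earlier results of these data known. Genes were kept where counts divided by DESeq2 size factors summed to above 45. Genotypes were compared with edgeR 4.0.16 (quasi-likelihood F test, TMM, no covariate, Benjamini-Hochberg adjustment over all tested genes, threshold 0.05). Standard errors were derived by dividing the fold change by the root of F. Log2 CPM used a prior count of 2. The procedure was tested on simulated data with 200 changed genes. With edgeR 90.5% of these were recovered, and 7.65% of the calls were false. DESeq2 recovered 94% with 14.2% of calls false, and limma-voom 89% with 6.32% false. Depth was 8488129 to 19514904 counts per library, and the mean of Cebpd was 44.4 counts. Exon lengths from GENCODE were known for 96.5% of tested genes.

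Alternatives were DESeq2 1.42.0, its size factors, library size only, 2 other filters, limma-voom (limma 3.58.1), a replicate block, 1 surrogate variable from sva 3.50.0, robust dispersions and each library left out. Besides the factors, named genes are those called in each list, filled up to 3 by mean CPM where fewer were called. Ucp1 and Prdm16 were added after their values were seen, and the printed promoter windows after their motifs were seen. Genes most like Pparg were the 3 of highest r. Protein sequences were not used here.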

Additional observations from a re-analysis of the deposited data

Results flagged for a closer look

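Cebpa in Stat5Adipoq replicate 4 was 576 CPM, apart from the 654 to 667 CPM of the other Stat5Adipoq libraries, and the gap was 0.858 of the range of the group. The value lay inside the control range of 486 to 753 CPM. Among 20 groups of 5 libraries examined, 10 factors in each genotype, this was the 1 value set apart in this way, where chance gives about 1.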

How the results depend on the processing

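None of the 10 factors was called in the 19 alternatives. The sign of the fold change moved in 7 alternatives for Tle3, 6 for Cebpd, 5 for Ebf1, 4 for Zfp423 and 1 each for Cebpa and Ebf2, and in none for Pparg, Cebpb, Rxra and Klf15. With 1 surrogate variable the log2 fold change was -0.02 for Ebf2, -0.18 for Cebpa and -0.42 for Cebpb. The count over all genes was 660 with DESeq2 and ranged from 185 to 443 when 1 library was left out. DESeq2 called 6 PPARγ targets and 1 regulator that promotes adipogenesis, and library size only also called 1 of the latter. With robust dispersions 1 C/EBP target was called. When 1 library was left out, between 1 and 3 PPARγ targets, 1 and 2 C/EBP targets, 1 and 3 brown identity genes and 0 and 1 of the regulators that promote adipogenesis were called. For these counts the cause was not tested. Fits without 1 library also hold fewer libraries, and the part of that was not tested either. With the longest transcript as length, 8 of the 10 factors kept their rank in control BAT, and Ebf1 and Ebf2 exchanged places.

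The labels do not say whether same-numbered mice were paired. Deviations of same-numbered libraries had correlations of -0.26 to 0.15 across genes, and 1 of 5 controls was closest to its own number. Such correlations cannot decide whether the mice were paired by litter or handling. With a replicate block 273 genes were called in all, 0 of the 10 factors, and 1 gene linked to KLF15, Gpt.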

Other observations

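Among the tested regulators of adipogenesis, 1 of 27 that promote it and 1 of 22 that restrain it did not overlap between the genotypes. Of all tested genes 4.39% did not overlap. The 2 regulators did not pass the threshold and are named here after their values were seen. Bmpr1a, which encodes a receptor for bone morphogenetic proteins, had 61.2 ± 3.31 CPM for control and 52.8 ± 2.33 CPM for Stat5Adipoq BAT (SD, n = 5 each; log2 fold change -0.21, adjusted p = 0.068 by edgeR). Sox9, a factor of progenitor cells, had 0.519 ± 0.234 and 1.25 ± 0.290 CPM (SD, n = 5 each), with 10.7 counts per library on average (log2 fold change 1.21, adjusted p = 0.084 by edgeR). Of 10 markers of mature adipocytes, Cfd was called lower and the other 9 were not called. Of the 10 fold changes 1 was above 0, and 3 had an unadjusted p-value below 0.05 by edgeR, all lower. The sum over all 10 ran from 21850 to 24990 CPM in control and from 19120 to 22570 CPM in Stat5Adipoq libraries. Stat5Adipoq replicates 2 to 5 lay below all controls, and replicate 1, at 22570 CPM, lay within their range. What lies behind this was not tested.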
